A study of Sus scrofa with 9 samples.

Results

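Transcripts of glucose transport and glycolysis were followed in the blood of Clawn miniature pigs, all male and of a small breed kept for laboratory use, around a single oral dose of azide. The array held 14 probes for these genes among 43603 non-control probes. A probe was taken if its gene name was SLC2A1, SLC2A3, HK2, PGK1, ENO1, LDHA, LDHB or GAPDH, which chose 4 probes, or if its description named a glucose transporter, hexokinase, L-lactate dehydrogenase, phosphoglycerate kinase, pyruvate kinase or enolase, which added 10 by the description alone. Of the 8 symbols, SLC2A1, HK2, PGK1 and LDHB had a probe under that gene name, and SLC2A3, ENO1 and GAPDH were not analysed here. A probe described as porcine lactate dehydrogenase A carries an accession as its gene name and spells its enzyme without the leading letter, so the rule passes over it; its values are given beside the others as LDHA and are not counted among the 14.

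Blood was taken before feeding (0 h, no azide), at 6 h and at 24 h after 300 µg/kg of azide, which is 0.01 of the LD50 according to the design text, with 3 arrays at each time. Azide blocks cytochrome c oxidase at the end of the mitochondrial respiratory chain. The labels name neither the salt nor the animals behind the replicate numbers, so a p-value here reflects the spread among these samples alone, and they disagree on age, with 7 months in some fields and 7 weeks in others. There were no untreated pigs at 6 h or 24 h, so azide cannot be told apart from time of day, handling and feeding. The arrays of each time may lie on a slide of their own, and slide and time could then not be told apart either.

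Glucose enters cells through carriers of the SLC2A (GLUT) family, is trapped by phosphorylation by a hexokinase, and is split into pyruvate by a chain of enzymes that includes phosphoglycerate kinase, enolase and pyruvate kinase. Lactate dehydrogenase turns pyruvate into lactate and so restores the NAD+ that glycolysis needs, and cells lean on this route when the respiratory chain cannot run. Neutrophils live mainly on glycolysis, and several of these genes, SLC2A1, PGK1 and LDHA among them, are textbook targets of the hypoxia-inducible factor HIF1A.

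Each probe was an oligonucleotide of 60 bases in the sense of the transcript. The 30 bases at the 5′ end of the SLC2A1, PGK1 and LDHA probes and at the 3′ end of the LDHB probe are printed to show what the results below rest on, together with the whole probe of the hexokinase-like transcript and of ENO3. Capitals mark AATAAA, the usual polyadenylation signal, searched on the printed strand only.
SLC2A1: agaagaatattcagggctctgcggctccag
PGK1: acatggaaacaagatgaaattccaattgta
LDHA: taaattggttcttgtaaaatagttctactt
LDHB: aagcaagtccttgaacaAATAAAgttaact
HKDC1-similar: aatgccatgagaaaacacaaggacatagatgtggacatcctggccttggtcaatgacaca
ENO3: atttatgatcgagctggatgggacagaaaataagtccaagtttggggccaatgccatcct
The LDHA and LDHB probes share no run of more than 7 bases with any other probe of the set, although the proteins are close relatives, and the longest run that any 2 of the probes shared was 9 bases. AATAAA stood in 12.1% of all probes on the array and in 2 of the 15 probes examined (the 14 and LDHA). HKDC1-similar and ENO3 each read through in 1 frame without a stop codon, while LDHA and LDHB had a stop in all frames of the strand.

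Levels below are log2 processed signal minus the 75th percentile of the same array, so a level of 0 is that percentile; a level depends on the probe and is compared between times, not between genes. Each difference is the later group minus the earlier, with the standard error (SE) from limma (3 arrays per group). Adjusted p-values come from limma with Benjamini-Hochberg adjustment over 19783 tested probes. Between 39.9% and 46.6% of spots before feeding were well above background, between 42.4% and 47.8% at 6 h, and between 45.5% and 56.6% at 24 h. The 8 tested probes of the set were well above background on all 9 arrays. The other 6, those for HK2, PGK2 and SLC2A2 and those like ketohexokinase, phosphoglycerate kinase and pyruvate kinase, were below that mark on every array, and no fold is given for them. The number of arrays, 3 per time, limits the precision of every value.

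SLC2A1 and PGK1 were each about 2.0 times as high at 6 h as before feeding, HKDC1-similar and LDHA somewhat less so, and LDHB was not raised; none of these differences passed the threshold of 0.05 on the adjusted p. At 6 h, 0 of the 8 tested probes passed, against 0.0253% of all tested probes (5 of 19783), and 3 had an unadjusted p under 0.05, all higher, against 25.5% of all tested probes in either direction and 14.6% as higher. In 3 of 8 all arrays at 6 h lay above all arrays before feeding, against 15.9% of all tested probes, and in 0 of 8 below, against 10.7%. The median difference was 0.11, beside 0.04 for all tested probes, with 4 higher and 4 lower in value (52.5% of all tested probes were higher). In blood, fewer cells of a type and less RNA per cell cannot be told apart.

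SLC2A1 encodes GLUT1, the basal glucose carrier of most cells. Its level was -1.29, -1.30 and -1.17 before feeding, -0.53, -0.05 and -0.07 at 6 h and -1.01, -0.85 and -1.12 at 24 h. The 3 times did not overlap: all arrays at 6 h were the highest, those at 24 h came between, and the arrays before feeding were the lowest, with an SD of 0.07. The difference at 6 h was 1.04 ± 0.25 (95% interval 0.47 to 1.60), a 2.05-fold level, with adjusted p = 0.0796 by limma. At 24 h against before feeding it was 0.26 ± 0.25 (adjusted p = 0.675 by limma), and at 24 h against 6 h it was -0.78 ± 0.25 (adjusted p = 0.137 by limma). The probe was dim, with a processed signal of 22.6 to 95.2, and the difference at 6 h was 0.39 after normexp background correction with an offset of 50 (adjusted p = 0.246 by limma); it passed at 0.73 with limma array weights (adjusted p = 0.00340) and at 0.95 without 6 h replicate 2 (adjusted p = 0.0462 by limma). Centring each array on its spike-in controls moved the median of all tested probes to 0.99 at 24 h against before feeding and to 0.69 at 24 h against 6 h. Under it SLC2A1 was at 1.26 (adjusted p = 0.0291 by limma) and -0.00 (adjusted p = 0.996 by limma) in those comparisons. The size of its difference at 24 h against 6 h thus depends on the scaling. That difference ran from -0.94 to -0.00 over the 20 alternatives, and from -0.94 to -0.47 with spike-in centring left out.

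**Figure D1:**
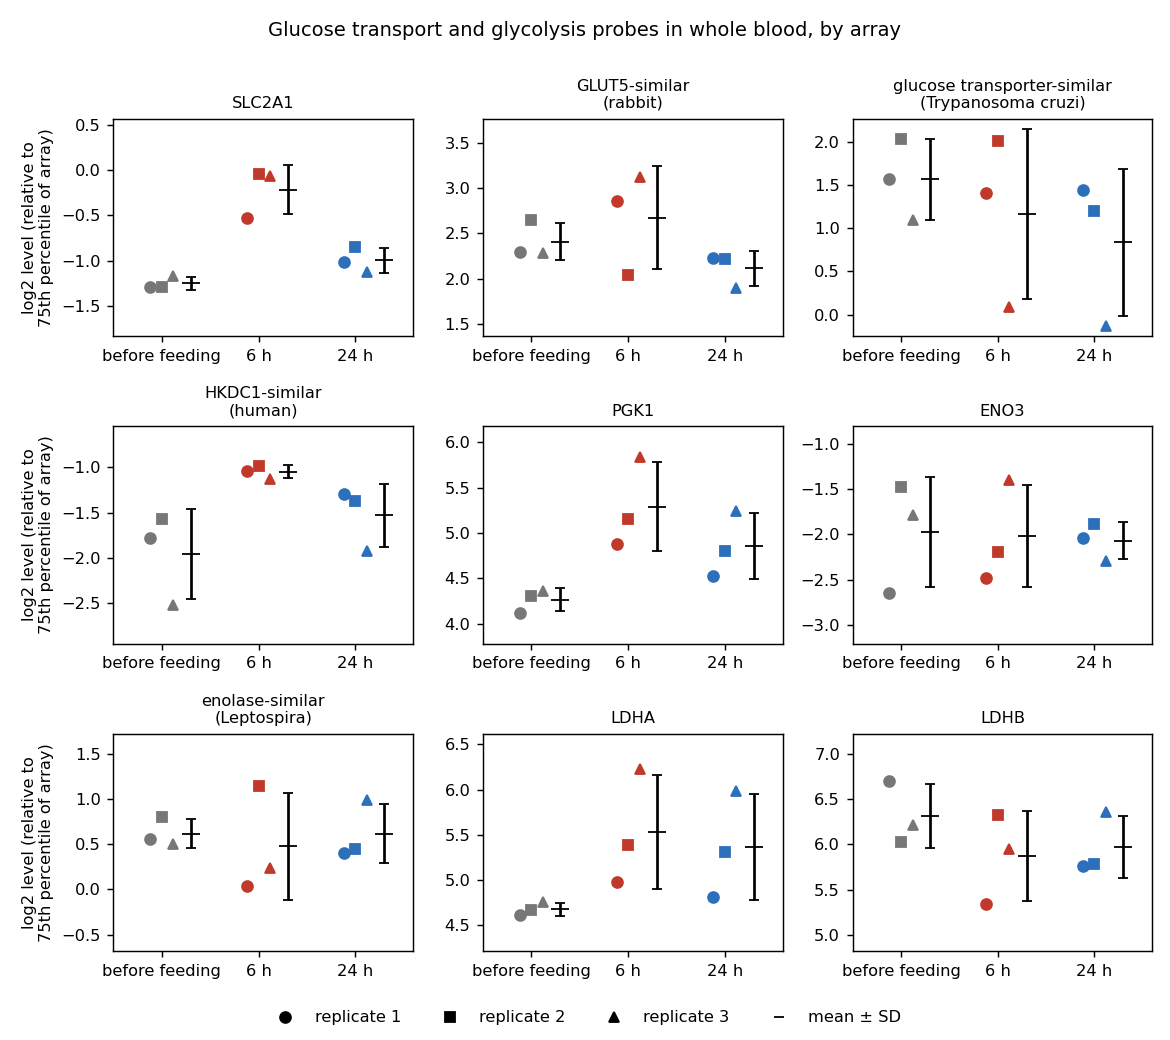
Level of each tested probe and of LDHA on every array, on the vertical axis as log2 signal relative to the array's 75th percentile, before feeding, at 6 h and at 24 h on the horizontal axis; symbols are replicates and black bars the mean ± SD of 3 arrays. SLC2A1, PGK1, HKDC1-similar and LDHA had all 6 h arrays above all arrays before feeding, while ENO3, LDHB, the enolase-similar probe and the other transporter probes overlapped there.

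Hexokinases trap glucose inside the cell by phosphorylating it. HK2, the inducible isoform, was on no array well above background, with levels from -5.33 to -3.01, the highest in 6 h replicate 3. HKDC1-similar is a pig transcript that the array's description matches to 24% of human hexokinase domain containing 1 (HKDC1), a relative of the hexokinases. Its level was -1.79, -1.57 and -2.52 before feeding, -1.04, -0.98 and -1.12 at 6 h and -1.29, -1.37 and -1.93 at 24 h. All 6 h arrays lay above all others, and the spread at 6 h was small, with an SD of 0.07 against 0.50 before feeding. The difference at 6 h was 0.91 ± 0.32 (95% interval 0.21 to 1.60), with adjusted p = 0.125 by limma, and those at 24 h were 0.43 ± 0.32 against before feeding and -0.48 ± 0.32 against 6 h, or 1.43 (adjusted p = 0.0217 by limma) and 0.30 with spike-in centring. This probe was dim too: normexp gave 0.24 at 6 h, and array weights gave 1.38, which passed (adjusted p = 6.49e-04 by limma), and 1.05 at 24 h (adjusted p = 0.00418 by limma).

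PGK1 is phosphoglycerate kinase, the first enzyme of glycolysis to yield ATP. Its level was 4.12, 4.31 and 4.36 before feeding, 4.88, 5.16 and 5.84 at 6 h and 4.53, 4.80 and 5.25 at 24 h. Both later times lay wholly above the arrays before feeding and overlapped each other. The difference was 1.03 ± 0.32 at 6 h (95% interval 0.33 to 1.74, adjusted p = 0.103 by limma), a 2.04-fold level, and 0.60 ± 0.32 at 24 h (95% interval -0.11 to 1.30, adjusted p = 0.433 by limma). At 24 h against 6 h it was -0.43 ± 0.32. With limma array weights the difference at 6 h was 0.63 and passed (adjusted p = 0.0160), and with spike-in centring it was 1.60 at 24 h and passed (adjusted p = 0.0226 by limma) and 0.35 at 24 h against 6 h. PGK2, the copy used by sperm in mammals, was on no array well above background.

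Lactate dehydrogenase is built from A subunits, which prevail in muscle and in cells that make lactate, and B subunits, which prevail in heart and in cells that burn it. LDHA was at 4.61, 4.67 and 4.76 before feeding, 4.98, 5.38 and 6.22 at 6 h and 4.81, 5.31 and 5.98 at 24 h. Every later array was above every array before feeding, and replicate 3 was the highest at each time. The differences were 0.85 ± 0.38 at 6 h (adjusted p = 0.194 by limma), 0.69 ± 0.38 at 24 h (adjusted p = 0.446 by limma) and -0.16 ± 0.38 at 24 h against 6 h (adjusted p = 0.852 by limma). The difference at 6 h was 0.51 without 6 h replicate 3 and 0.37 with array weights, and that at 24 h was 1.70 with spike-in centring and passed (adjusted p = 0.0278 by limma).

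LDHB was at 6.70, 6.02 and 6.22 before feeding, 5.34, 6.32 and 5.95 at 6 h and 5.76, 5.79 and 6.36 at 24 h. The times overlapped, with the single lowest array at 6 h and the single highest before feeding. The difference was -0.44 ± 0.34 at 6 h (95% interval -1.19 to 0.30, adjusted p = 0.423 by limma) and -0.34 ± 0.34 at 24 h (95% interval -1.09 to 0.40, adjusted p = 0.669 by limma). At 6 h it was -0.82 with quantile normalization and -0.18 without 6 h replicate 1, and with array weights it was -0.78 and passed as lower (adjusted p = 0.00732 by limma); at 24 h it was 0.66 with spike-in centring. LDHB lay at percentile 96.2 of signal among the tested probes, and probes from percentile 95 to 99 had a median of -0.27 at 24 h against before feeding and 0.17 at 6 h. PGK1 and LDHA lay at percentiles 92.0 and 93.7. Probes from percentile 90 to 95 had a median of -0.22 at 24 h against before feeding and 0.21 at 6 h. With quantile normalization the differences of PGK1 and LDHA at 6 h were 0.74 and 0.54.

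A ratio of 2 probes on the same array is free of a shift of the whole array. It is not free of the background correction or of differences that vary with brightness. With normexp, for instance, SLC2A1 was at 0.39 and LDHB at -0.43 at 6 h, against 1.04 and -0.44 in the main fit. Of such ratios, 3 were taken after the values had been seen. The log2 ratio of LDHA over LDHB was -2.09, -1.36 and -1.46 before feeding, -0.36, -0.94 and 0.28 at 6 h and -0.94, -0.48 and -0.38 at 24 h. The later arrays were all above those before feeding, by 1.30 on average at 6 h and 1.03 at 24 h, each with p = 0.1 in a two-sided exact permutation test, which is the smallest p that 3 against 3 arrays allow. PGK1 over LDHB differed by 1.47 at 6 h and 0.94 at 24 h, again with no overlap. SLC2A1 over LDHB differed by 1.48 at 6 h with no overlap and by 0.60 at 24 h with overlap (exact permutation p = 0.3, two-sided). At 24 h against 6 h it differed by -0.88 with no overlap (exact permutation p = 0.1, two-sided). LDHA over LDHB and PGK1 over LDHB differed there by -0.26 and -0.53, with overlap. With 9 comparisons of ratios and a smallest p of 0.1, none could pass; the values show unequal differences between the genes and not which of them moved.

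**Figure D2:**
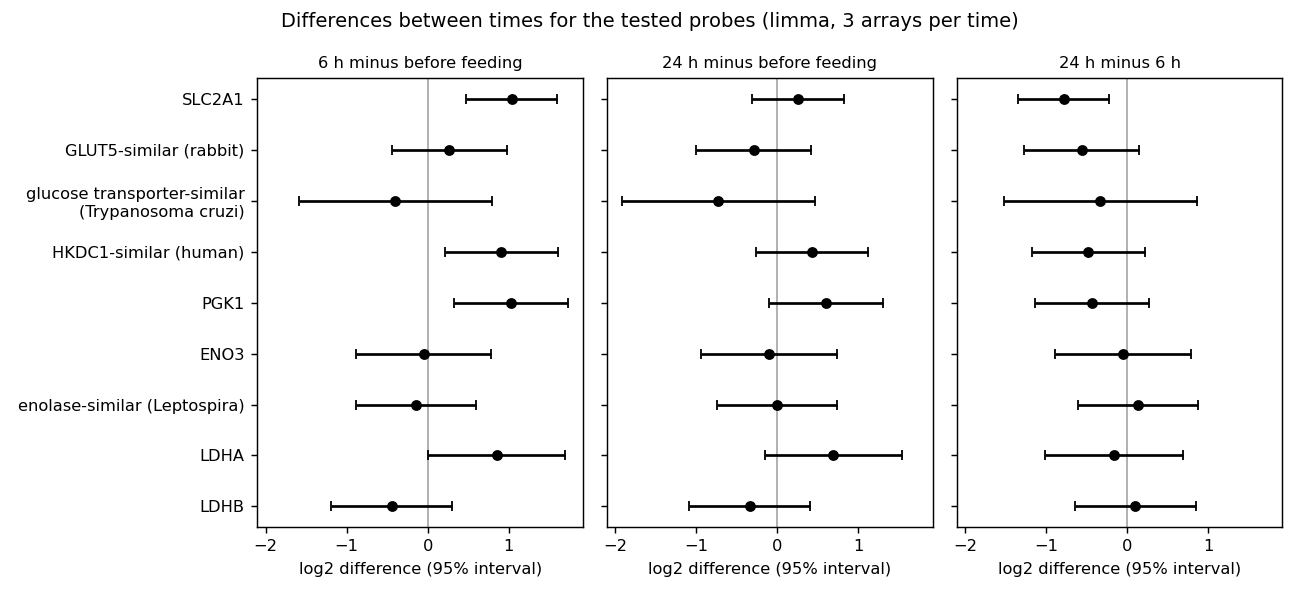
Fitted log2 difference with its 95% interval (horizontal axis) for each of the 8 tested probes and LDHA, in 3 panels for 6 h minus before feeding, 24 h minus before feeding and 24 h minus 6 h. At 6 h the intervals of SLC2A1, PGK1, HKDC1-similar and LDHA lay above 0, before any adjustment for the number of probes, and at 24 h against before feeding every interval included 0.

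Enolase makes phosphoenolpyruvate, the substrate of pyruvate kinase. ENO3, the muscle isoform, was at -2.65, -1.48 and -1.79 before feeding, -2.48, -2.19 and -1.40 at 6 h and -2.04, -1.88 and -2.29 at 24 h. The times overlapped, and the differences were -0.05 at 6 h (95% interval -0.89 to 0.79), -0.10 at 24 h and -0.05 at 24 h against 6 h, each with an SE of 0.38. Among the tested probes of the set it was the dimmest, at percentile 13.2 of signal, with a processed signal of 13.1 to 42.4. In before-feeding replicate 1, where ENO3 was at -2.65, the lowest level well above background was -3.15. The other tested probes belong to pig transcripts that the descriptions liken to other species' proteins, so that the gene behind each is not known here. The GLUT5-similar probe, matched to 4% of the fructose carrier of rabbit, was at 2.29, 2.64 and 2.28 before feeding, 2.85, 2.04 and 3.13 at 6 h and 2.23, 2.22 and 1.89 at 24 h. All 24 h arrays were below all arrays before feeding, by -0.29 ± 0.32 (adjusted p = 0.705 by limma), and the 6 h arrays were scattered around both. The enolase-similar probe, matched to 4% of a Leptospira protein, differed by -0.14 ± 0.34 at 6 h and -0.00 ± 0.34 at 24 h. The probe matched to 64% of a Trypanosoma cruzi glucose transporter differed by -0.40 ± 0.54 and -0.73 ± 0.54, with replicate 3 the lowest array at each time.

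At 24 h against before feeding, 0 of the 8 tested probes passed in limma and none had an unadjusted p under 0.05, against 0% of all tested probes past the adjusted threshold and 13.9% at the unadjusted one. SLC2A1 and PGK1 were higher with no overlap, against 7.38% of all tested probes, and the GLUT5-similar probe lower, against 19%. At 24 h against 6 h, 0 of 8 passed in limma and SLC2A1 alone had an unadjusted p under 0.05, against 0% and 21.6% (13.6% as lower); SLC2A1 and HKDC1-similar were lower with no overlap, against 16.4%, and 0 of 8 were higher with no overlap, against 10%. The median differences of the set were -0.05 and -0.38, beside -0.01 and -0.09 for all tested probes. The comparisons at 6 h and 24 h share their arrays before feeding, and the last shares the 6 h arrays with the first.

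Other genes of glucose metabolism were described from lists by pathway; no gene of these lists passed the threshold in any comparison. Taking each gene by its brightest tested probe, the highest differences at 6 h were those of TXNIP, PGD and GYS1. TXNIP, an arrestin-like protein that binds thioredoxin and draws GLUT1 off the cell surface, was at 4.98, 5.23 and 4.73 before feeding, 6.79, 6.53 and 7.67 at 6 h and 5.34, 5.78 and 5.59 at 24 h. The 3 times did not overlap. The difference at 6 h was 2.01 ± 0.33 (adjusted p = 0.0605 by limma), and 2.20 ± 0.37 in its second probe. Of the other carriers, SLC2A10 was at 0.37 ± 0.37, SLC2A11 at 0.37 ± 0.94 and SLC2A8 at -0.25 ± 0.30.

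The pentose phosphate pathway takes glucose phosphate away from glycolysis to make NADPH, which feeds the phagocyte oxidase, and ribose. Its 3 tested genes of 8 listed were all higher in value at 6 h (median 1.29), 2 of them with no overlap; of all tested probes 52.5% were higher and 15.9% higher with no overlap. PGD, which makes NADPH, was at 5.68, 6.16 and 6.25 before feeding, 7.59, 7.09 and 8.55 at 6 h and 5.97, 6.42 and 6.79 at 24 h, a difference of 1.71 ± 0.39 at 6 h (adjusted p = 0.0774 by limma). TKT, transketolase, which returns sugars to glycolysis, differed by 1.29 ± 0.32 (adjusted p = 0.0797 by limma) and by 1.78 ± 0.50 in its second probe. RPIA, ribose phosphate isomerase, was at 0.30 ± 0.26. At 24 h the differences from before feeding were 0.36 for PGD, 0.01 for TKT and -0.07 for RPIA, and at 24 h against 6 h PGD and TKT were at -1.35 ± 0.39 and -1.28 ± 0.32, with no overlap.

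In glycogen metabolism, all 4 tested genes of 13 listed were higher in value at 6 h (median 0.62), 2 of them with no overlap, against the same 52.5% and 15.9% of all tested probes. GYS1, glycogen synthase, was at -1.49, -0.60 and -0.28 before feeding, 0.78, -0.06 and 1.89 at 6 h and -0.29, -0.25 and -0.47 at 24 h, which gave 1.66 ± 0.47 at 6 h (adjusted p = 0.0900 by limma) with no overlap. PGM1, which joins glycogen to glycolysis, differed by 0.75 ± 0.28 (adjusted p = 0.139 by limma), also with no overlap, and by 0.65 ± 0.58 in its second probe. UGP2, which makes the UDP-glucose that glycogen is built from, differed by 0.33 ± 0.37, with 0.52 to 0.98 in its other probes. Among the other glycolytic enzymes, with 4 tested of 29 listed, GPI, which isomerises glucose phosphate, differed by 1.49 ± 0.57 (adjusted p = 0.150 by limma) and TPI1, triose phosphate isomerase, by 0.66 ± 0.42 and 0.82 ± 0.40 in its probes. For GPI, 1 array before feeding was far below the other two, and the groups overlapped. PFKM, the muscle phosphofructokinase, was at 0.12 ± 0.94, and ENO3 is given above.

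Of 18 genes listed for the fate of pyruvate 4 were tested. DLD, the dehydrogenase subunit shared by the pyruvate and oxoglutarate dehydrogenase complexes, was at 1.60, 0.01 and 1.20 before feeding, -0.66, 0.53 and -0.45 at 6 h and 1.29, 1.14 and 2.13 at 24 h. It differed by -1.13 ± 0.47 at 6 h (adjusted p = 0.172 by limma) and by 1.72 ± 0.47 at 24 h against 6 h (adjusted p = 0.114 by limma), where the groups did not overlap. DLAT, another pyruvate dehydrogenase subunit, was at 0.03 ± 0.33. PC, pyruvate carboxylase, was well above background on 2 of 3 arrays before feeding, and SLC16A1, a lactate carrier, on 2 of 3 before feeding and 2 of 3 at 6 h, so no difference is given for them. FBP1, the 1 tested gluconeogenic enzyme of 6 listed, was at -0.51 ± 0.47.

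Of HIF1A and its targets outside glycolysis, 4 were tested of 20 listed, and HIF1A and P4HA1 were well above background on all arrays. HIF1A itself was at -0.02 ± 0.47 at 6 h and 0.90 ± 0.47 at 24 h (adjusted p = 0.415 by limma); its protein is controlled mainly by degradation, which an array does not measure. P4HA1, a collagen prolyl hydroxylase, was at 0.89 ± 0.50 at 6 h, with 0.83 to 1.68 in its other probes. ADM, the vasodilator adrenomedullin, was well above background on 1 of 3 arrays before feeding, 1 of 3 at 6 h and 3 of 3 at 24 h, and EPAS1, a relative of HIF1A, on 1 of 3 before feeding and 3 of 3 at each later time. The 2 tested energy sensing genes of 11 listed were PRKAG1, a subunit of the AMP-activated kinase, at 0.01 ± 0.26, and MYC, a driver of glycolytic genes, at -0.43 ± 0.42. PRKAG1 was at 0.45 ± 0.28 in its second probe.

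**Figure D3:**
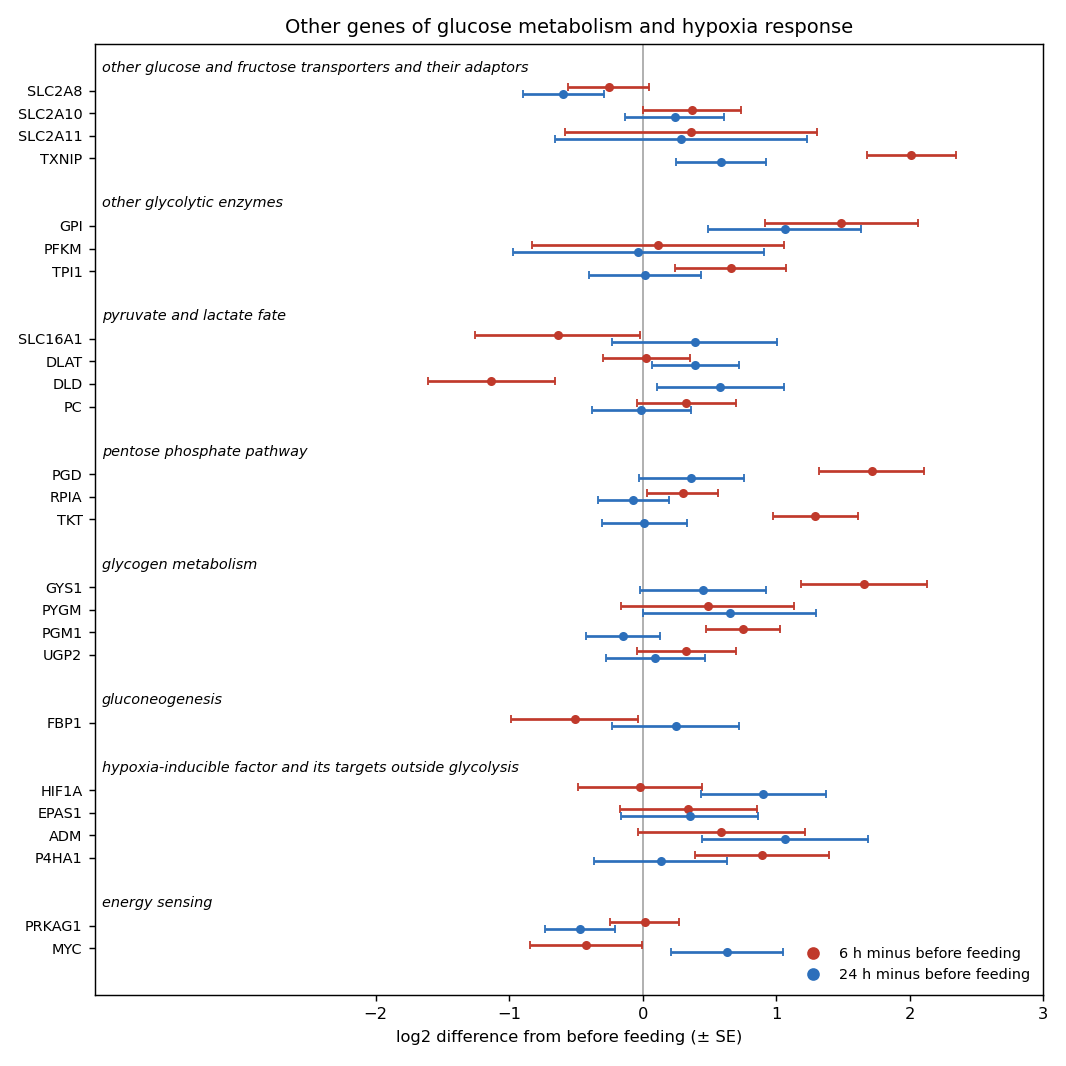
Log2 difference from before feeding (horizontal axis, ± SE) at 6 h and at 24 h for the tested genes of each pathway list, grouped by list down the page. TXNIP, PGD, GYS1, GPI and TKT were above 1 at 6 h, DLD was below -1, and none passed the threshold. Values of ADM, EPAS1, SLC16A1 and PC include arrays on which the probe was not well above background.

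Blood cell markers differed between the same arrays. The mean level of the neutrophil markers (4 tested of 14 listed) lay between 5.16 and 5.81 before feeding, between 6.84 and 8.63 at 6 h and between 5.72 and 5.94 at 24 h. That of the monocyte markers (6 of 10) lay between 4.98 and 5.50 before feeding, between 6.28 and 7.84 at 6 h and between 5.29 and 6.48 at 24 h. The T cell markers (9 of 12) lay between 2.27 and 2.67, between 1.01 and 2.12 and between 2.23 and 2.31 at the same times. All 4 neutrophil and all 6 monocyte markers had higher values at 6 h and 8 of 9 T cell markers lower ones, where 52.5% of all tested probes were higher, and none passed the threshold. Of the T cell markers CD4 was well above background on 1 of 3 arrays before feeding and 2 of 3 at 6 h.

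Relative to their mean before feeding, neutrophil markers were at 2.24, 1.32 and 3.11 in 6 h replicates 1, 2 and 3 and monocyte markers at 1.52, 1.11 and 2.67. PGK1, LDHA, TXNIP, PGD, TKT and GYS1 were highest in replicate 3, as these markers were. Of the 6 h arrays, replicate 1 was the lowest for PGK1 and LDHA, and replicate 2 for TXNIP, PGD, TKT and GYS1. The level of SLC2A1 was -0.53, -0.05 and -0.07 in 6 h replicates 1, 2 and 3. The means of the neutrophil and monocyte markers were lowest in replicate 2 and highest in replicate 3. So were LTF, NCF1, CD14, LGALS3, CD163, LYZ and FCN1 taken singly. MMP9 (8.26, 8.96 and 9.74), FCGR3A (8.29, 8.42 and 8.72) and CST3 (9.87, 10.38 and 10.58) were lowest in replicate 1, as SLC2A1 was. For SLC2A1, as for the mean of the neutrophil markers, all 6 h arrays lay above all others. At 24 h replicate 3 held the highest PGK1 and LDHA, the highest monocyte level (1.31) and the lowest platelet level (-1.07, 4 tested of 8 listed). The part of the cell mixture in these results was not tested.

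**Figure D4:**
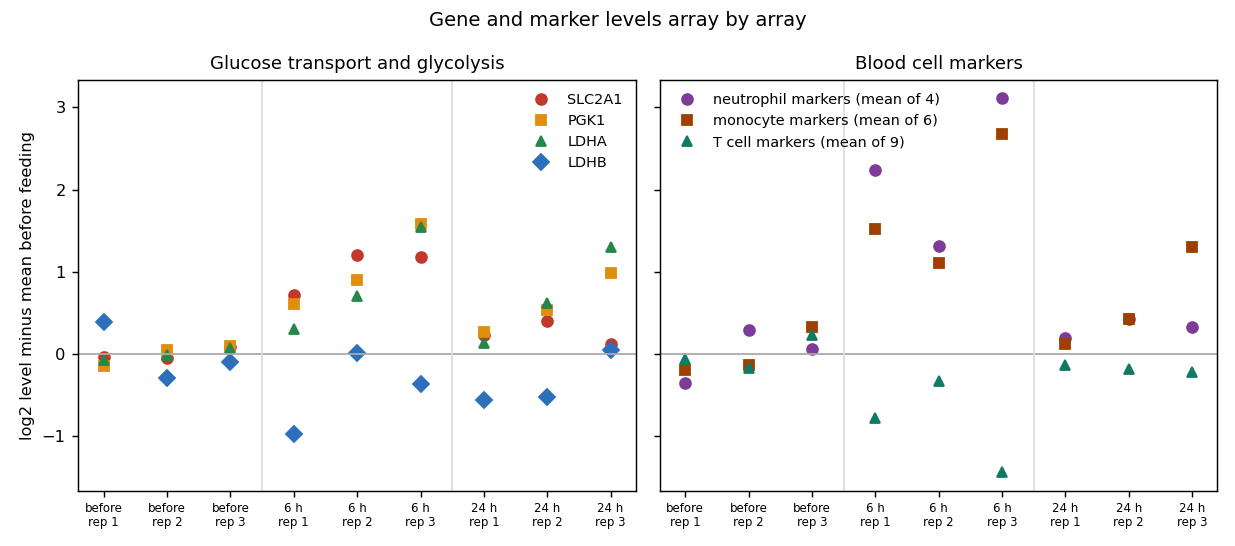
Array by array, log2 level minus the mean before feeding (vertical axis) for SLC2A1, PGK1, LDHA and LDHB on the left and for the mean of the neutrophil, monocyte and T cell markers on the right, with the 9 arrays along the horizontal axis. PGK1 and LDHA peaked in 6 h replicate 3 with the neutrophil and monocyte markers. Of the 6 h arrays, PGK1 and LDHA were lowest in replicate 1 and the means of these markers in replicate 2. SLC2A1 was lower in 6 h replicate 1 and nearly level between 6 h replicates 2 and 3.

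Across the 9 arrays, which share the times and so their differences, PGK1 and LDHA went together (Pearson r = 0.95), SLC2A1 followed PGK1 (0.79) more than LDHA (0.59), and LDHB followed neither (-0.20 with PGK1 and -0.01 with LDHA). Of 1202 other named genes, those most like SLC2A1 were STAT2 (0.96), RAMP1 (0.95) and IRF1 (0.94). STAT2 and IRF1 are transcription factors of the interferon response, and RAMP1 is a receptor activity-modifying protein. Most like PGK1 were SOD2 (0.99), the mitochondrial superoxide dismutase, ATP6V1H (0.97), a proton pump subunit, and ANXA2 (0.97), a membrane-binding protein. Most like LDHA were IFRD1 (0.97), SLC7A7 (0.96), an amino acid carrier, and GADD45A (0.95), a stress-induced growth arrest gene. LDHB was most like COX7C (0.93) and COX6C (0.93), subunits of cytochrome c oxidase, and EEF1A1 (0.91), a translation elongation factor.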

How the data were processed

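RNA from PAXgene blood was labelled with Cy3 and hybridised to 1-colour porcine arrays, 1 per sample, per the labels' protocols. The deposited scanner files hold spot intensity; per the file headers the processed intensity is background-subtracted and came from Feature Extraction 10.5.1.1, while the submitters' processing notes name 9.5.3.1. How the authors made a deposited table of intensity for the whole series is not stated in the labels; it was read as linear from its values, with column medians of 11.4, and served as an alternative.

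Control and outlier spots were left out and spots of a probe averaged. From log2 intensity each array's 75th percentile was subtracted. Probes that every array of some time (3 arrays) measured well above background, 19783 in number, were tested in a single limma fit (version 3.58.1, R 4.3.3) of all 9 arrays with time as the only term, at an adjusted p of 0.05. The fit was tested on simulated data. Python 3.11.15 with pandas 2.3.3, numpy 2.4.6, scipy 1.17.1 and matplotlib 3.10.9 and R's data.table (version 1.17.8) were used for tables, permutation tests and plots.

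The probes and gene lists were chosen with earlier results of these data known. All tested probes of the set are named; up to 3 genes per list and direction with the smallest p at 6 h, each by its brightest tested probe, and the 3 named genes most correlated with each member symbol are named too. Gene names came from the files and from given RefSeq tables; 6.90% of probes have one, and no genome was used, so positions are not given. Whether replicate numbers pair the arrays is not settled. Correlations of same-numbered arrays ran from -0.20 to 0.64, and those of arrays with unlike numbers from -0.63 to 0.43. Between 6 h and 24 h the same-numbered arrays were at 0.54, 0.08 and 0.45, and the others ran from -0.50 to 0.16. Between before feeding and 24 h the same-numbered arrays were at -0.07, 0.64 and 0.22. Between before feeding and 6 h they were at -0.15, -0.20 and 0.11. The main fit does not pair them. The 20 alternatives were other scalings, background corrections, filters and fits, and leaving out each array.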

Additional observations from a re-analysis of the deposited data

How the results depend on the processing

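SLC2A1, PGK1, LDHA and HKDC1-similar kept a higher value at 6 h than before feeding in all 20 alternatives, from 0.39 to 1.26, 0.63 to 1.26, 0.37 to 1.13 and 0.24 to 1.38. At 6 h the count of all probes past the threshold, 5 as reported, was 8 with quantile normalization and with the deposited values, 613 with spike-in centring (607 higher), 604 with the replicate block (522 higher), 9861 with array weights, and 0 with normexp, no filter, the filter on all arrays, a trend and robust prior, or only the 2 groups compared. Leaving out 1 array gave 0 to 2407, the highest without 6 h replicate 2, then 26 without 24 h replicate 3. Of the 8 tested probes, 5 passed at 6 h with array weights (SLC2A1, PGK1, HKDC1-similar and GLUT5-similar as higher, LDHB as lower) and 0 to 1 when 1 array was left out (SLC2A1 without 6 h replicate 2); with the replicate block 0 passed (SLC2A1 adjusted p = 0.0601 by limma). Equal numbers correlated between some times and not between others, so whether they are pairs stays unsettled.

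At 24 h against before feeding the count of all probes, 0 as reported, was 6 with quantile normalization and with the deposited values, 5821 with spike-in centring (5818 higher) and 5466 with array weights; 3 of the 8 passed with spike-in centring (SLC2A1 at 1.26, PGK1 at 1.60 and HKDC1-similar at 1.43), as did LDHA at 1.70, and 1 with array weights (HKDC1-similar). Spike-in centring moved the median of all probes to 0.99, that of the 8 to 0.95, LDHB to 0.66, ENO3 to 0.91, the enolase-similar probe to 1.00, the Trypanosoma-like transporter to 0.28 and GLUT5-similar to 0.71. With normexp SLC2A1 was at -0.16 and HKDC1-similar at -0.0859. At 24 h against 6 h, array weights gave 5753 probes and 1 of the 8 (GLUT5-similar, as lower), and leaving out 1 array gave 0 to 1764 probes, the highest without 6 h replicate 2. Spike-in centring there moved the median of all probes to 0.69, that of the 8 to 0.40, SLC2A1 to -0.00, ENO3 to 0.73, PGK1 to 0.35, the Trypanosoma-like transporter to 0.45, GLUT5-similar to 0.22, HKDC1-similar to 0.30 and LDHA to 0.62; quantile normalization gave PGK1 0.0621 and LDHA 0.35, the deposited values gave 0.0639 and 0.34, normexp LDHA 0.10, and array weights ENO3 0.40 and LDHA 0.0677.

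Values near 0 changed sign most. ENO3 at 6 h was at 0.18 with spike-in centring and 0.0194 with normexp, the enolase-similar probe at 0.0857 with spike-in centring, and the Trypanosoma-like transporter at 0.17 with array weights. At 24 h the enolase-similar probe was at 0.0235 with quantile normalization, 0.0455 with median centring and 0.0356 with the deposited values, and the transporter at 0.0271 with array weights. Leaving out 1 array gave, at 6 h, ENO3 -0.39 to 0.20, enolase-similar -0.48 to 0.0746 and the transporter -0.82 to 0.14; at 24 h, ENO3 -0.44 to 0.15 and enolase-similar -0.19 to 0.10; and at 24 h against 6 h, LDHB -0.16 to 0.33, enolase-similar -0.0775 to 0.47, the transporter -0.87 to 0.16, ENO3 -0.28 to 0.26 and LDHA -0.47 to 0.18. The cause of these changes was not tested. For the dim probes SLC2A1 and HKDC1-similar normexp gave 0.39 and 0.24 at 6 h, the lowest of their alternatives.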

Other observations

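Some hypoxia genes outside the lists had lower values at 6 h, where SLC2A1 and PGK1 had higher ones. They were picked after their values were seen, and none passed the threshold. P4HA1, from the lists, had higher values at 6 h, at 0.89 and at 0.83 to 1.68 in its other probes. HILPDA, a lipid droplet protein named for its induction by hypoxia, had 2 tested probes. The first was at -0.39, -1.34 and -0.96 before feeding, -2.11, -1.75 and -2.41 at 6 h and -1.43, -1.51 and -0.88 at 24 h, and the second at 1.04, 1.04 and 0.90 before feeding, 0.50, 0.40 and 0.07 at 6 h and 1.15, 1.09 and 0.91 at 24 h. In both, all 6 h arrays lay below all others. Of all tested probes, 10.7% were lower with no overlap at 6 h against before feeding, and 10% were higher with no overlap at 24 h against 6 h. The differences at 6 h were -1.19 ± 0.33 (adjusted p = 0.0871 by limma) and -0.67 ± 0.25 (adjusted p = 0.140 by limma), and those at 24 h against 6 h were 0.81 ± 0.33 and 0.73 ± 0.25.

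A transcript that the array matches to 50% of a human hypoxia-inducible factor prolyl hydroxylase, an oxygen-dependent enzyme that marks HIF1A for destruction, was at 0.14, 0.14 and -0.03 before feeding, -1.16, -0.21 and -2.04 at 6 h and -0.59, -0.74 and -0.54 at 24 h. Both later times lay below the arrays before feeding, by -1.22 ± 0.40 at 6 h (adjusted p = 0.113 by limma) and -0.71 ± 0.40 at 24 h (adjusted p = 0.453 by limma). Of all tested probes, 10.7% at 6 h and 19% at 24 h were lower than before feeding with no overlap. A probe matched to 4% of another species' HIF1A was at -0.29 ± 0.28 at 6 h. At 24 h it was at -0.90 ± 0.28 (adjusted p = 0.247 by limma), with no overlap. The probe of HIF1A itself was at -0.02 and 0.90 at these times.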
